A study of Mus musculus with 25 samples.

Results

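The genes of the p53 response and of cell-cycle arrest were measured in the gastrocnemius, a calf muscle, of mice with accelerated aging. The 10 genes were taken by name: Trp53, Mdm2, Cdkn1a, Cdkn1b, Ccng1, Plk2, Sesn1, Zmat3, Trp53inp1 and Trp53inp2. All 10 were present among the 8829 genes of the deposited table. The animals were male SAMP8 mice, an inbred line derived from AKR/J that shows early signs of aging. Control mice (n = 11) received the vehicle and Thymol mice (n = 14) received thymol, a phenol of thyme oil, at 20 mg/kg per day. Treatment ran from 8 months of age and for 3 months. The paper reports oral gavage on most, but not all, days of each week. Each mouse gave 1 library of 3′ mRNA tags, made without molecular identifiers. The reads assigned to the 8829 genes numbered 4463818 to 9463418 per library, with a median of 7503259. The values were log2 CPM, reads scaled to the size of the library. No mice of a normally aging strain or of a younger age were analysed here, so that every level below belongs to SAMP8 muscle. Skeletal muscle is a mixed tissue, and in such bulk samples fewer cells of a type and less RNA per cell cannot be told apart. All 8 genes of a fixed list of muscle fibre markers were measured, with a mean of 13.19 ± 0.06 log2 CPM in Control and 13.18 ± 0.11 in Thymol mice (SD), and Myh4, a fast myosin heavy chain, was the most abundant of them at 15.04 log2 CPM.

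p53, encoded in the mouse by Trp53, is a transcription factor that is kept scarce by the ubiquitin ligase Mdm2 and accumulates when DNA is damaged or the cell is under stress, a control of the protein that mRNA tags do not measure. It then raises the transcription of genes that stop the cell cycle, of which the CDK inhibitor p21 (Cdkn1a) is the best known, of genes that limit oxidative damage and growth signalling, and of Mdm2 itself, which closes a feedback loop. Lasting p21 is a mark of senescent cells, while muscle fibres have left the cell cycle for good and also change Cdkn1a when their nerve supply or their load changes.

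p53 binds pairs of a short degenerate decamer. The RefSeq promoter windows (GRCm38.p6), which run from 250 bases before to 50 bases after a transcript start, held 10 windows of 8 of the genes. The p53 consensus decamer was found in windows of 5 of these 8 genes, against 9.55% of all 27025 genes with a window, and in 5 of the 10 windows, against 8.36% of all 32851 windows. The decamer is its own reverse complement, so both strands give the same sites. The stretches around the matches are shown because they carry the candidate binding sequence of the genes whose levels are compared below. They are written 5′ to 3′ on the strand of the gene, with the decamers in capitals.
Cdkn1a (chr17:29090886-29090957, plus strand): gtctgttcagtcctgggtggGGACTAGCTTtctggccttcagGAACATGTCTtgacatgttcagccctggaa
Mdm2 (chr10:117710915-117710964, minus strand): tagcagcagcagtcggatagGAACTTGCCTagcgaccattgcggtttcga
Ccng1 (chr11:40755442-40755491, minus strand): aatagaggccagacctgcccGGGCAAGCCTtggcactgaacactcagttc
Trp53 (chr11:69580264-69580313, plus strand): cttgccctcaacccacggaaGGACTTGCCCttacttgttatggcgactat
Sesn1 (chr10:41887246-41887295, plus strand): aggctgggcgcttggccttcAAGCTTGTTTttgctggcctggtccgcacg
Only exact matches to the consensus were searched and set in capitals. Cdkn1a was the only gene with 2 such decamers in a window, 12 bases apart. They began 73 and 51 bases before the upstream of its 2 transcript starts. The 10 bases directly after the second decamer miss the consensus only at their first base, and are therefore not marked. Which of these sequences p53 binds was not tested. The window of the downstream Cdkn1a start held none. In Mdm2, Ccng1, Trp53 and Sesn1 the decamer began 186, 185, 75 and 173 bases before the start. Sesn1 also had a window at another start, and it held none. The windows of Cdkn1b, Plk2 and Trp53inp2 held none. Trp53inp1 and Zmat3 had no window in the table. Such a match is a description of letters. The 3′ tags do not tell from which start a transcript came.

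No member passed the test between Thymol and Control mice. Of the 10 genes, 0 passed an adjusted p under 0.05 in limma's test, as did 0% of the 8829 genes. At an unadjusted p under 0.05 the counts were 0 of 10 members and 312 genes, 3.53% of all. The fitted log2 fold changes of Thymol against Control ran from −0.39 for Sesn1 to 0.28 for Plk2, with 6 members higher and 4 lower, and every adjusted p was 0.9999. What the members did show was a wide range of levels and, in Cdkn1a above all, large differences between single mice within a group.

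**Figure D1:**
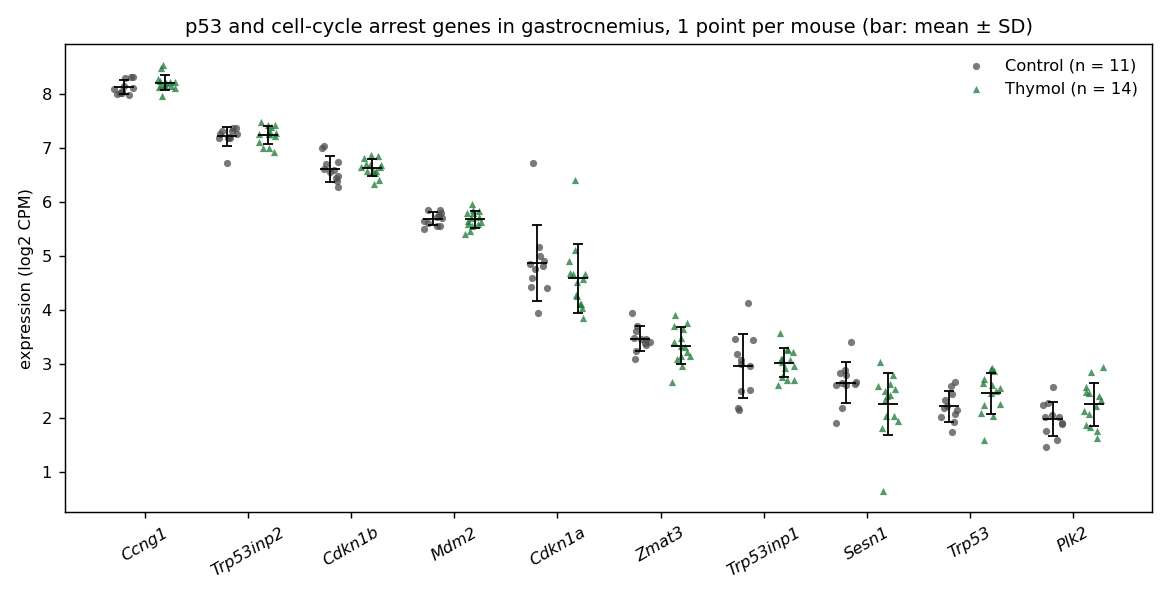
Expression of the 10 genes in log2 CPM (vertical axis), ordered by mean level. Each point is 1 mouse, circles for Control (n = 11) and triangles for Thymol (n = 14), and the bars give the mean ± SD. The groups overlap in each gene, and a Control mouse at 6.73 and a Thymol mouse at 6.41 stand above the other mice in Cdkn1a.

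Trp53 (chromosome 11, 69580359 to 69591873, plus strand) encodes p53 itself and was among the scarcest members. Its level in Control mice had a lowest value of 1.73, a median of 2.19 and a highest value of 2.66 log2 CPM, and in Thymol mice these were 1.59, 2.53 and 2.91. The groups overlapped over nearly the whole range, and both the lowest and the highest mouse were in the Thymol group. The log2 fold change was 0.24 ± 0.15 (SE), with an unadjusted p of 0.105. These levels rested on few reads, with a median of 31 per Control library and 42 per Thymol library. In the annotation, 4.95% of the 31-base words in the last 500 bases of the Trp53 transcripts also occurred in the pseudogene Trp53-ps, and the other members shared none with another gene.

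Mdm2 (chromosome 10, 117688875 to 117710758, minus strand), the ligase that marks p53 for degradation and is also its target, had nearly the same level in every mouse. It ran from 5.49 through a median of 5.70 to 5.84 log2 CPM in Control and from 5.40 through 5.66 to 5.96 in Thymol mice. The Control range lay inside the Thymol range. The log2 fold change was −0.0042 ± 0.06 (SE), with a 95% confidence interval of −0.13 to 0.12 and an unadjusted p of 0.947. On the linear scale, this interval spans ratios of 0.913 to 1.09.

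Cdkn1a (chromosome 17, 29090976 to 29100727, plus strand) encodes p21, which binds and blocks cyclin-CDK complexes. In Control mice its lowest, median and highest levels were 3.93, 4.81 and 6.73 log2 CPM. In Thymol mice they were 3.85, 4.55 and 6.41. The highest values belonged to Control mouse 19, with 811 reads of Cdkn1a, and Thymol mouse 16, and no other mouse exceeded 5.15. From the lowest to the highest mouse the level differed 7.33-fold. The log2 fold change of Thymol against Control was −0.29 ± 0.24 (SE), with a 95% confidence interval of −0.77 to 0.20 and an unadjusted p of 0.239. It moved to −0.10 without Control 19, to −0.43 without Thymol 16 (unadjusted p = 0.0410) and to −0.24 ± 0.14 without both (unadjusted p = 0.0952). An exon of a gene of unproven coding potential overlapped 273 bases of Cdkn1a exons on the other strand, and it is not stated in the sources used here whether the counting used strand.

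Cdkn1b (chromosome 6, 134920401 to 134925513, plus strand) encodes p27, the CDK inhibitor of resting cells, and was several times more abundant than Cdkn1a. Control mice ran from 6.26 through a median of 6.58 to 7.03 log2 CPM and Thymol mice from 6.33 through 6.65 to 6.86. All Thymol mice fell within the Control range. The log2 fold change was 0.02 ± 0.08 (SE), with an unadjusted p of 0.824.

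Ccng1 (chromosome 11, 40748552 to 40755311, minus strand), which encodes cyclin G1, a p53 target that recruits a phosphatase to Mdm2, was the most abundant member. Its lowest, median and highest levels were 7.98, 8.09 and 8.31 log2 CPM in Control and 7.96, 8.17 and 8.53 in Thymol mice. Although 13 of 14 Thymol mice lay above the Control median, the difference was small, with a log2 fold change of 0.09 ± 0.06 (SE) and an unadjusted p of 0.131.

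Plk2 (chromosome 13, 110395046 to 110400844, plus strand), a polo-like kinase induced by p53, was the scarcest member. Control mice ran from 1.45 through 2.01 to 2.57 log2 CPM and Thymol mice from 1.62 through 2.28 to 2.94. The ranges overlapped for most mice, and the lowest value was that of Control 19. The log2 fold change was 0.28 ± 0.16 (SE), with an unadjusted p of 0.0892 and 15 reads in the poorest library of the Thymol group.

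Sesn1 (chromosome 10, 41809935 to 41908424, plus strand) encodes sestrin 1, which restrains mTORC1 signalling, and had the smallest p of the members. In Control mice its lowest, median and highest levels were 1.90, 2.64 and 3.40 log2 CPM, and in Thymol mice 0.64, 2.41 and 3.02. Of the Thymol mice, 12 of 14 lay below the Control median, and Thymol 6, with 10 reads, lay far below the rest. The log2 fold change was −0.39 ± 0.19 (SE), with a 95% confidence interval of −0.79 to 0.01, an unadjusted p of 0.0549 and a rank of 354 by p among all genes. Without Thymol 6 the log2 fold change was −0.26 and without Control 19, the highest mouse, it was −0.31.

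Zmat3 (chromosome 3, 32334792 to 32366014, minus strand), a zinc finger protein that binds RNA, ran from 3.08 through 3.45 to 3.93 log2 CPM in Control and from 2.66 through 3.31 to 3.89 in Thymol mice. Its log2 fold change was −0.13 ± 0.12 (SE), with an unadjusted p of 0.301. The Thymol mice spread further downward, but the upper ends of the groups were alike.

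Trp53inp1 and Trp53inp2 encode related proteins that act in autophagy, Trp53inp1 also as a p53 target and Trp53inp2 also in muscle mass. Trp53inp1 (chromosome 4, 11156431 to 11174379, plus strand) ran from 2.15 through 3.00 to 4.11 log2 CPM in Control and from 2.60 through 3.04 to 3.56 in Thymol mice, so that all Thymol mice lay inside the Control range. Its log2 fold change was 0.06 ± 0.17 (SE), with an unadjusted p of 0.742. Trp53inp2 (chromosome 2, 155381059 to 155389850, plus strand) was far more abundant, from 6.72 through 7.25 to 7.37 log2 CPM in Control and from 6.91 through 7.25 to 7.48 in Thymol mice. Its log2 fold change was 0.02 ± 0.07 (SE), with an unadjusted p of 0.761. Control 19 was the highest mouse for Trp53inp1 and the lowest for Trp53inp2.

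**Figure D2:**
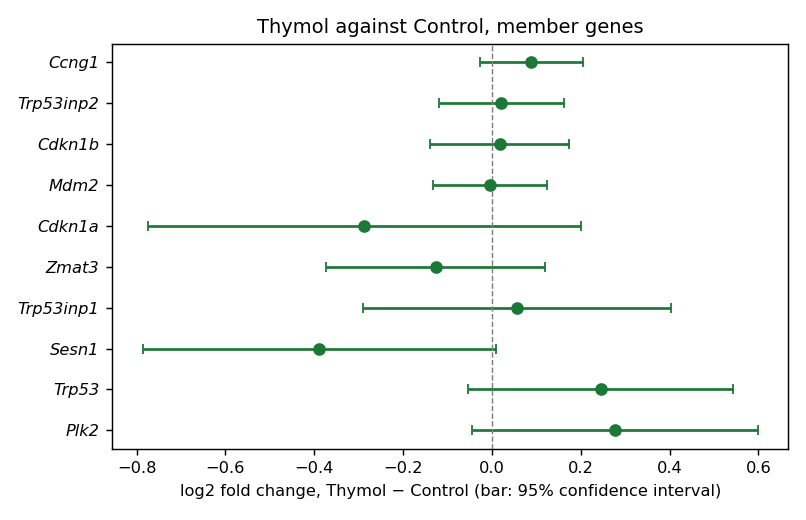
Log2 fold change of Thymol against Control for the 10 genes (horizontal axis), with points for the limma estimate and bars for the 95% confidence interval, ordered by mean level. Each interval crosses 0, and that of Cdkn1a, from −0.77 to 0.20, is among the widest.

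Over all 25 mice the mean levels fell from 8.17 log2 CPM for Ccng1, through 7.22 for Trp53inp2, 6.62 for Cdkn1b, 5.68 for Mdm2, 4.70 for Cdkn1a, 3.39 for Zmat3, 2.99 for Trp53inp1, 2.43 for Sesn1 and 2.34 for Trp53, to 2.13 for Plk2. The median gene of the table had 4.09 log2 CPM. In 3′ sequencing each transcript gives tags at its end, so these levels were not divided by length. The upper steps of this order held in nearly every mouse, with Ccng1 above Trp53inp2 in 25 of 25, Trp53inp2 above Cdkn1b in 24 and Cdkn1b above Mdm2 in 25. Mdm2 exceeded Cdkn1a in 23 mice, the exceptions being Control 19 and Thymol 16. The lower neighbours were not separated beyond their spread: Sesn1 exceeded Trp53 in 15 of 25 mice, with a mean difference of 0.08 and an SD of 0.64 on the log2 scale, and Trp53 exceeded Plk2 in 18.

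The spread between mice set Cdkn1a apart from the other members. Its SD within groups was 0.66 on the log2 scale, at percentile 98.4 of the tenth of genes with the nearest level. The variance of Cdkn1a was 37.8 times what the sampling of reads alone gives, against a median ratio of 4.47 over all genes. This sampling variance takes each read as independent, and reads copied from the same molecule were not allowed for in any gene. Without Control 19 and Thymol 16, a choice made after seeing the data, its SD was 0.36. Sesn1 and Trp53inp1 were the next most variable for their level, with SDs of 0.50 and 0.44 at percentiles 84.9 and 83.01. At the other end stood Mdm2, with an SD of 0.14 at percentile 7.70, and Trp53, with an SD of 0.34 at percentile 6.34 and a variance only 2.11 times the sampling variance. Plk2 was similar, with a ratio of 2.09, while Ccng1 had an SD of 0.14 at percentile 31.3.

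**Figure D3:**
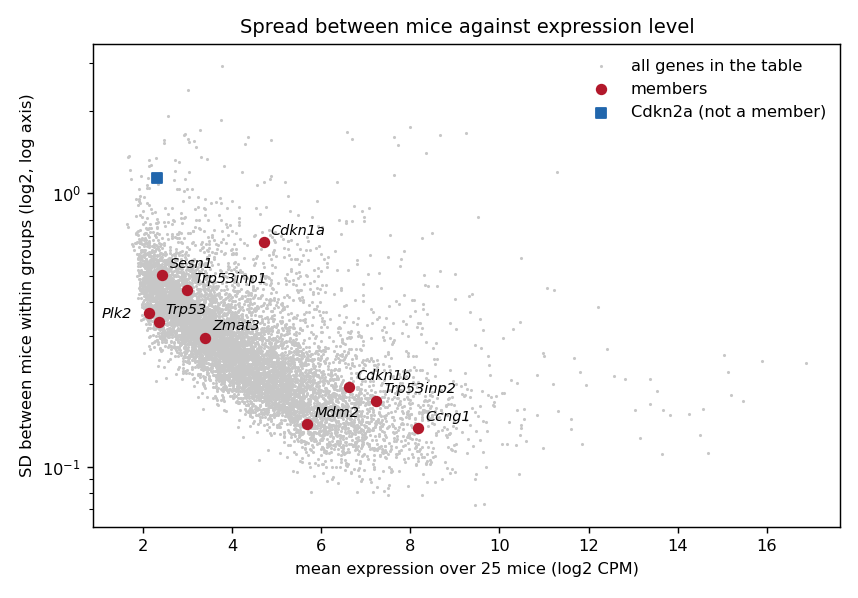
SD between mice within groups on the log2 scale (vertical, log axis) against mean expression over 25 mice in log2 CPM (horizontal axis), for all 8829 genes in grey and the 10 members in red. Cdkn1a, at an SD of 0.66, lies above nearly all genes of its level, and Mdm2, at 0.14, near the lower edge. The blue square is Cdkn2a, with an SD of 1.13.

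Neither of the libraries with the highest Cdkn1a was poorly sequenced, with 7278397 reads in the genes of the table for Control 19 and 8585679 for Thymol 16. Control 19 was the highest of the 25 mice for 3 members (Cdkn1a, Trp53inp1 and Sesn1) and the lowest for 2 (Trp53inp2 and Plk2). It also had the lowest mean level of the fibroblast markers, at 5.49 log2 CPM against 5.86 to 7.91 in the other mice, and the highest of the adipocyte markers, at 8.39 against 3.59 to 8.22. Its median correlation with the other libraries, 0.953, ranked 23 of 25. Thymol 16 was in no member but Cdkn1a and Plk2 among the 2 highest mice, and its adipocyte and fibroblast marker levels ranked 21 and 23. It was lowest for immediate-early genes, at 3.44 log2 CPM. The part of these differences in the Cdkn1a values was not tested.

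The question whether the p53 targets varied together across mice was addressed with the group means subtracted. Of the 45 pairs of members, 23 correlated positively and 22 negatively, with a median Pearson r of 0.0056. Among the 10 pairs of the 5 genes with a p53 decamer in a promoter window, r ran from −0.28 to 0.32 with a median of 0.02. Cdkn1a and Mdm2 had an r of −0.24 (n = 25, permutation p = 0.254), and Mdm2 and Trp53 an r of −0.28 (n = 25, permutation p = 0.168).

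A single pair passed the Benjamini-Hochberg adjustment over the 45 pairs. Ccng1 and Cdkn1b varied in opposite directions, with an r of −0.62 (permutation p = 0.00087, adjusted p = 0.0391) and a Spearman's rho of −0.59 (permutation p = 0.00214, adjusted p = 0.0963). The value was −0.76 among the 11 Control mice, −0.53 among the 14 Thymol mice, and −0.49 without the 2 mice farthest from the median of Ccng1. Among the 8828 other genes of the table, Cdkn1b ranked 60 by the size of its r with Ccng1. The call was lost when libraries were centred on their median, with an r of −0.52 and an adjusted p of 0.337. Another 2 pairs had an unadjusted p under 0.05, Cdkn1a with Cdkn1b (r = 0.44, rho = 0.30, adjusted p = 0.582) and Trp53 with Trp53inp2 (r = 0.40, rho = 0.40, adjusted p = 0.582). The first of them fell to 0.27 without Control 19 and Thymol 16.

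**Figure D4:**
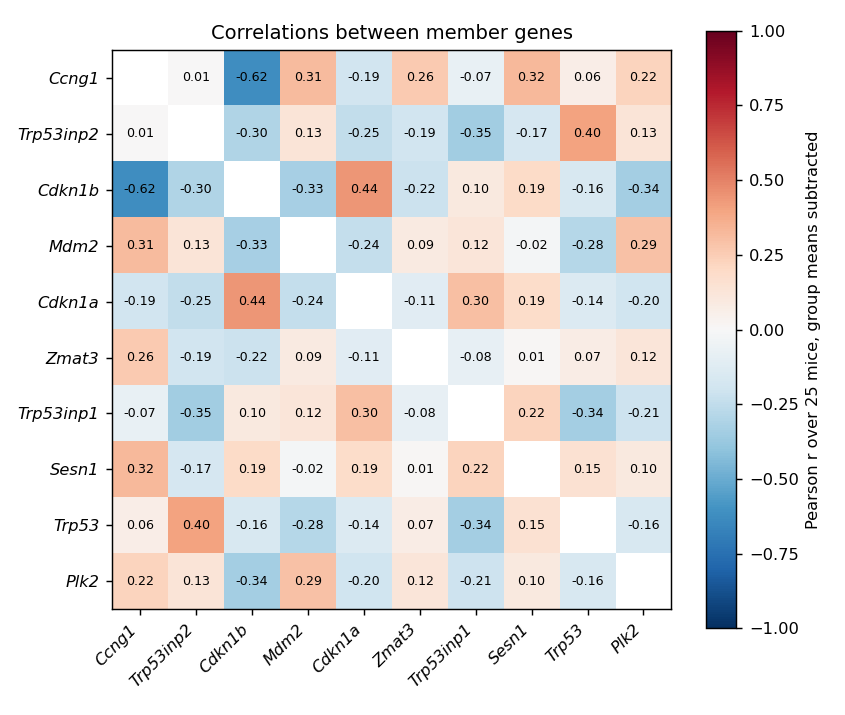
Pearson r between the 10 members over 25 mice after the group means were subtracted (colour and number in each cell, from −1 in blue to 1 in red). Most cells are pale, with a median r of 0.0056, and the strongest is Ccng1 with Cdkn1b at −0.62.

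The genes whose pattern was most like that of Cdkn1a were Galnt17, a glycosyltransferase, Chrna1, the alpha subunit of the muscle acetylcholine receptor, Eda2r, a receptor of the TNF receptor family that is itself a p53 target, Cox5b, a subunit of cytochrome c oxidase, and Naa12, an acetyltransferase subunit. Their r with Cdkn1a over 25 mice was 0.81, 0.78, 0.76, 0.73 and 0.72, and an r of at least 0.75 in size was found for 0.0453% of all genes. Much of this likeness lay in Control 19 and Thymol 16, which held the highest and next highest values of Galnt17, Chrna1 and Eda2r. Without these mice the r was 0.57 for Galnt17, 0.36 for Chrna1, 0.48 for Eda2r, 0.36 for Cox5b and 0.43 for Naa12. Chrna1 was at 5.52 and 5.67 log2 CPM in Control 19 and Thymol 16, against 4.002 to 5.16 in the other 23 mice. Eda2r was at 4.76 and 4.62, against 1.85 to 4.17.

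The lowest r with Cdkn1a belonged to Npc1, which moves cholesterol out of lysosomes, at −0.83 (rho = −0.80), and to Rhoq, a small GTPase, at −0.73 (rho = −0.46). Npc1 was at 3.56 log2 CPM in Thymol 30, 3.70 in Control 19 and 4.03 in Thymol 16, and at 5.27 or more in the other 22 mice. These 3 mice ranked 4, 1 and 2 of 25 by Cdkn1a. The relation with Npc1 was also present among the other mice, with an r of −0.68 without Control 19 and Thymol 16 and of −0.62 over the 22 mice with high Npc1. That with Rhoq dropped to −0.36 without Control 19 and Thymol 16. These likenesses were picked from all genes and are given as descriptions, without a test.

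**Figure D5:**
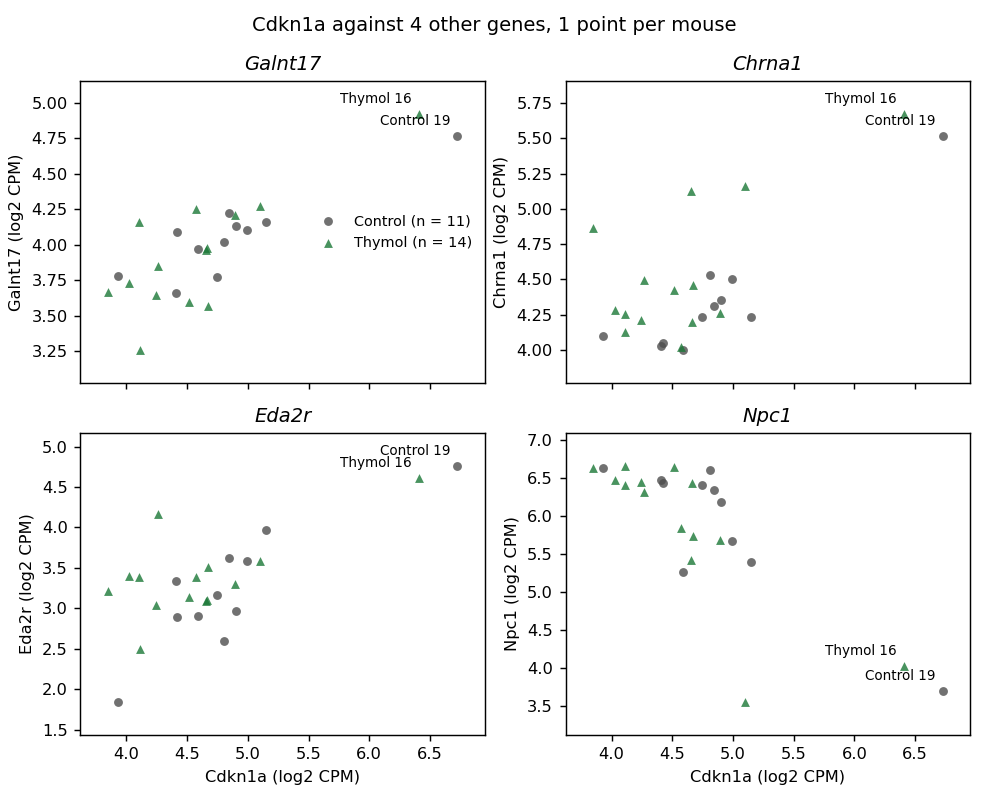
Expression of Galnt17, Chrna1, Eda2r and Npc1 (vertical axes, log2 CPM) against Cdkn1a (horizontal axis, log2 CPM), with 1 point per mouse, circles for Control and triangles for Thymol. Control 19 and Thymol 16 lie at the right end of each panel, high for Galnt17, Chrna1 and Eda2r and low for Npc1.

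For each other member the gene with the highest r was Asb8 for Ccng1 (0.79), Perm1, a muscle regulator of oxidative genes, for Trp53inp2 (0.76), Cdk7, the CDK-activating kinase, for Cdkn1b (0.73), Dnal4 for Trp53inp1 (0.73), 9330159F19Rik for Sesn1 (0.71), Ush1c for Zmat3 (0.71), Elof1 for Mdm2 (0.66), Plekha2 for Plk2 (0.64) and Spin1 for Trp53 (0.63). Without the 2 mice farthest from the median of the member, these values lay between 0.46 for Trp53 and 0.68 for Trp53inp1. None of these genes was a member.

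Marker lists of muscle fibres, of the other cell types of muscle, and of immediate-early and clock genes were set against the members in 100 relations, and 0 passed the adjustment, the smallest adjusted p being 0.115. An unadjusted permutation p under 0.05 was found in 5 of the 100, all given below. That is the share which a threshold of 0.05 gives where nothing is related. The most abundant genes of these lists included Car3 (adipocyte list, 11.06 log2 CPM), Dcn (fibroblast, 9.56), Myl3 (slow fibre, 9.24), Tef (clock, 8.46), Jun (immediate-early, 6.66), Pecam1 (endothelial, 5.66), Lyz2 (leukocyte, 5.24) and Sdc4 (satellite cell, 4.22). Car3 had an SD within groups of 0.45, against 0.69 for Fabp4 and 1.52 to 1.68 for Adipoq, Plin1, Cfd and Cidec of its list. How much of Car3 came from adipocytes was not tested. The largest relation was that of Zmat3 with slow fibre markers, at an r of −0.61 (permutation p = 0.00115) and a rho of −0.46. It was −0.11 among Control and −0.75 among Thymol mice, a difference that was not tested, and −0.49 without the 2 mice farthest from the median of the markers. The summed level of all 7 slow fibre markers ran from 9.68 to 12.74 log2 CPM in Control and from 6.004 to 13.07 in Thymol mice. Ccng1 with the same markers had an r of −0.53 (permutation p = 0.0074), which became −0.16 without the 2 farthest mice. Plk2 with satellite cell markers, of which 2 of 6 were measured, had an r of −0.51 (permutation p = 0.00947). Trp53inp1 with adipocyte markers had an r of 0.49 (permutation p = 0.0126), which became 0.26 without the 2 farthest mice and 0.33 without Control 19 and Thymol 16. Cdkn1a with fibroblast markers had an r of −0.41 (permutation p = 0.0490), which became −0.03 without Control 19 and Thymol 16. The part of fibre type or cell makeup in the member levels was not tested further.

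The rest of the pathway was followed through lists of genes, of which 0 passed the adjusted threshold. Of the 17 measured regulators of p53 activity, 8 were fitted higher and 9 lower in Thymol mice, with a median log2 fold change of −0.02. Cop1, a further ligase for p53, had the smallest p of the list (log2 fold change −0.19 ± 0.08 (SE), unadjusted p = 0.0197), and Trp53bp1, a damage sensor, the smallest on the higher side (0.19 ± 0.10, unadjusted p = 0.0660). Of 13 other targets in repair and metabolism, 7 were higher and 6 lower. Tigar, which lowers glycolytic flux, was at 0.16 ± 0.09 (unadjusted p = 0.0881) and Polk, a translesion polymerase, at −0.23 ± 0.16 (unadjusted p = 0.153).

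Of 7 apoptotic targets, 3 were higher and 4 lower, with Bak1, a pore-forming protein of mitochondria, at −0.31 ± 0.12 (SE, unadjusted p = 0.0186) and Phlda3 at 0.23 ± 0.21 (unadjusted p = 0.294). Of 11 other growth-arrest targets, 4 were higher and 7 lower, with Btg2, an antiproliferative gene, at −0.34 ± 0.20 (unadjusted p = 0.0931). Of the 6 CDK inhibitors, Cdkn1a and Cdkn1b included, 2 were higher and 4 lower, the smallest p being 0.214 for Cdkn2c at −0.16 ± 0.13, and Cdkn2d stood at 0.09 ± 0.10 (unadjusted p = 0.391).

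Among the 11 cyclins, CDKs and pocket proteins, 4 were higher and 7 lower, with Ccnd2, cyclin D2, at −0.26 ± 0.12 (SE, unadjusted p = 0.0315) and E2f4 at 0.18 ± 0.11 (unadjusted p = 0.117). The 6 measured proliferation genes divided into 3 and 3, with Mcm7 at −0.22 ± 0.14 (unadjusted p = 0.127) and H1f2 at 0.08 ± 0.08 (unadjusted p = 0.333). Of 11 genes listed for senescence-associated secretion, 10 were fitted lower and 1 higher, against 4454 lower and 4375 higher of all 8829 genes. The smallest p was that of Mmp14, a membrane-bound matrix protease, at −0.52 ± 0.17 (unadjusted p = 0.00543, adjusted p = 0.9999). The higher gene was Lmnb1 at 0.05 ± 0.13 (unadjusted p = 0.681). It encodes lamin B1, a protein of the nucleus that is not secreted. Several genes of that list are made by fibroblasts, whose markers differed by −0.11 in mean log2 level between Thymol and Control mice, with SDs of 0.59 in Control and 0.42 in Thymol mice. The part of the markers in that pattern was not tested.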

How the data were processed

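Gastrocnemius RNA of 25 male SAMP8 mice was sequenced with QuantSeq 3′ FWD libraries. The authors aligned reads with STAR (2.5.3) to GRCm38, counted them with HTSeq (0.6.1), and deposited TMM-normalised log2 CPM values of 8829 genes. The paper gives a filter of 30 reads in at least 6 samples, but with another number of retained genes. Which filter left the 8829 genes is not stated there. Whether counting used strand is not given in the sources used here. Whole reads were recovered from all values (100% within 0.05 of a whole number), with a mean of 2 reads as the prior count. The low members therefore change less on this scale than their reads do. The recovered reads of the 8829 genes summed to 4463818 to 9463418 per library, and members with 10 to 50 reads per library are the least precise. Each of the 8829 genes had at least 30 recovered reads in 7 or more mice.

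Groups were taken from the sample labels. Because the deposited unit was log2, Thymol and Control were compared with limma (3.58.1, R 4.3.3) with a mean-variance trend over all genes, two-sided, p-values being adjusted by Benjamini-Hochberg (threshold 0.05). The sampling variance was computed from the recovered reads. Correlations used 100000 permutations within Python 3.11.15 and scipy 1.17.1, adjusted over 45 pairs and over 100 relations separately. Gene positions were those of GENCODE M21 (GRCm38) and promoter windows those of RefSeq. The text names all members, for each pathway list the lowest-p gene fitted higher and the lowest-p gene fitted lower, the 5 highest and 2 lowest correlates of Cdkn1a, the highest correlate of each other member and the most abundant gene of each marker list. A few genes that this rule names are not reported here. Members and lists were chosen with earlier results of these data known. The labels do not say that the libraries share litters or batches. Scripts were tested on simulated data. Alternatives covered scaling, filter, prior count, voom on recovered reads, variance models, sample weights, library number, a block and each mouse left out.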

Additional observations from a re-analysis of the deposited data

How the results depend on the processing

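Under each of 36 alternatives to the comparison of Thymol with Control, 0 genes of the table, 0 members and 0 genes of the pathway lists passed the adjusted threshold, while 234 to 348 genes had an unadjusted p under 0.05. The number of members with an unadjusted p under 0.05 was 0 to 1 as single mice were left out and 1 (Sesn1, p = 0.0450) with a block on the first label number. The labels do not say what that number stands for. Same-numbered mice of the 2 groups are different animals. Over 9 such pairs their deviations correlated by −0.18 to 0.10, with a median of 0.05 against −0.0089 for other pairs between the groups. Of 16 mice, 0 correlated best with a mouse of their own number. A shared effect of the number was not tested. With the block, only the 16 mice whose number occurs in both groups, with 7 numbers, inform the difference. Its estimates therefore rest on fewer mice than the main fit. The log2 fold change of Cdkn1a turned to 0.054 (unadjusted p = 0.810). That of Trp53 shrank from 0.24 to 0.01 (unadjusted p = 0.939) and that of Zmat3 went from −0.13 to −0.28 (unadjusted p = 0.119). Of 356 recomputed member fold changes, 19 in 5 members changed sign, all in members without a call. With quantile normalization that of Mdm2 was 0.0018. With single mice left out, the ranges were −0.026 to 0.017 for Mdm2, −0.024 to 0.17 for Trp53inp1, −0.027 to 0.045 for Trp53inp2 and −0.018 to 0.059 for Cdkn1b. Without Control 19 and Thymol 16 that of Trp53inp2 was −0.030. The filter on the 75% of genes with the highest mean kept 6 of the 10 members. The number of called pairs of members went from 1 to 0 with libraries centred on their median, with Spearman's rho, with the group mean not subtracted, and in Control or Thymol mice alone. The number of called relations with markers went from 0 to 1 with quantile normalization, for Ccng1 with slow fibre markers (r = −0.65, adjusted p = 0.0370). The cause of these changes was not tested.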

Other observations

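Cdkn2a, the locus of the senescence markers p16 and Arf, is no member and was chosen for description after its values were seen. It was the most variable of the 6 CDK inhibitors measured, with an SD within groups of 1.13 on the log2 scale, at percentile 98.9 of the genes nearest in level and 18.9 times the variance that read sampling gives. In Control mice its lowest, median and highest levels were 1.11, 2.38 and 4.83 log2 CPM, and in Thymol mice they were −0.34, 1.93 and 3.75. These levels rested on few reads, with a median of 35 per library, and fewest on the log2 scale in Thymol 24. The groups overlapped widely, and the log2 fold change was −0.51 ± 0.41 (SE, unadjusted p = 0.224). Its spread did not follow that of Cdkn1a, with an r of 0.08 between the genes over 25 mice. Control 19 and Thymol 16, the mice with the highest Cdkn1a, ranked 13 and 6 of 25 by Cdkn2a, while Control 18 had the highest Cdkn2a.

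In the list of FoxO targets and atrophy genes, which also respond to loss of nerve supply or to fasting, 2 genes were likewise chosen after their values were seen. Trim63, the muscle ubiquitin ligase MuRF1, had the highest r with Cdkn1a, at 0.62 and rank 22 of all genes, and Mstn, which encodes the growth inhibitor myostatin, the lowest, at −0.58. Without Control 19 and Thymol 16 these values were 0.25 and −0.54. Of the 15 genes of that list, 13 were fitted lower in Thymol mice, against 4454 of all 8829 genes, and 0 passed the adjusted threshold. The median log2 fold change of the list was −0.05, and that of Trim63 was −0.0018. The smallest p was that of Eif4ebp1 (log2 fold change −0.23 ± 0.11 (SE), unadjusted p = 0.0475) and the smallest on the higher side that of Map1lc3b (0.05 ± 0.06, unadjusted p = 0.342). Of the 14 denervation genes, 7 were fitted higher and 7 lower, with Chrna1 at 0.19 ± 0.17 (unadjusted p = 0.269) and Runx1 at −0.31 ± 0.29 (unadjusted p = 0.289). Of these genes Gadd45a was, like Cdkn1a, highest in Control 19, at 4.14 log2 CPM against 1.58 to 3.66 in the mice other than Control 19 and Thymol 16. Thymol 16, at 3.61, lay inside that range and ranked 3. The r of Gadd45a with Cdkn1a was 0.30, and −0.33 without Control 19 and Thymol 16. Within the denervation list, r with Cdkn1a ran from 0.78 for Chrna1 to −0.44 for Myod1.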
